A study of Homo sapiens with 4 samples.

Results

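The genes described here are the numbered zinc finger (ZNF) genes of human chromosome 19. They were taken by 3 annotation columns of the deposited table, as protein-coding genes of chromosome 19 whose symbol is ZNF followed by a number and at most 1 letter, which gave 247 of the 58336 genes in the table. The rule itself used no measured value, but it was chosen with earlier results of these data known. Expression was measured by RNA sequencing in 2 established human gastric cancer cell lines, AGS, derived from a gastric adenocarcinoma, and HGC-27, derived from an undifferentiated gastric carcinoma. The 4 groups, with 1 library each, were AGS with estradiol, AGS control, HGC-27 with estradiol and HGC-27 control. Estradiol was given at 10 nM for 1 day, and all cells carry the genotype label WT. The sources used here do not say whether control cells received a vehicle. Nothing in the labels says that the libraries came from separate cultures, so p-values measure the spread between these libraries alone.

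Most zinc finger genes of chromosome 19 arose by repeated duplication of neighbouring genes and encode proteins in which a row of zinc fingers reads a DNA sequence. In many of them a KRAB domain at the start of the protein recruits the corepressor TRIM28 (also called KAP1), which in turn brings the histone methyltransferase SETDB1 and heterochromatin protein HP1. Known targets include transposable elements, imprinted regions and the zinc finger gene clusters themselves. Promoter methylation of several of these genes has been described in gastric and other carcinomas.

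The gene counts summed to 28062811 in AGS estradiol, 26306803 in AGS control, 24597379 in HGC-27 estradiol and 28734374 in HGC-27 control, so the depths of the lines overlapped. Within each line the libraries correlated at 0.9975, and the control libraries of the lines at 0.7811 (Pearson r of log2 CPM over all tested genes, a description). The line labels were checked against marker genes. All 8 epithelial markers were higher in AGS, where they summed to 6493 and 6171 CPM (counts scaled to library size) against 76.1 and 71.3 CPM in HGC-27. All 5 mesenchymal markers tested were lower in AGS. CDH2, the other of the 6 listed, was not tested, and its few counts leaned the opposite way. In AGS it reached 11 with estradiol and 5 in control, while HGC-27 showed 0 with estradiol and 4 in control. Summed over the 6 listed, the level was 5.57 and 5.0 CPM for AGS, far below the 1983 and 1958 CPM of HGC-27. Of 5 gastric markers, TFF1 had 506 and 593 counts in AGS libraries against 0 and 0 in HGC-27, and GKN1 had 0 in all 4. Leukocyte CD3E was at 0 in all 4 libraries and PTPRC reached at most 22 counts, while lysozyme (LYZ), which gastric epithelium also makes, had 5004 and 6329 counts in AGS and 0 and 2 counts in HGC-27.

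Sequences upstream of 7 members are shown first, 4 that lie in one interval and differed in which line expressed them and 3 from a row that was low in AGS alone. ZNF616, ZNF836, ZNF766 and ZNF528 lie between ZNF175 and ZNF331. ZNF616 was expressed in both lines and higher in AGS, ZNF836 was detected in AGS alone, ZNF766 was expressed in both and lower in AGS, and ZNF528 was detected in HGC-27 alone. ZNF667, ZNF470 and ZNF71 belong to a row of 4 neighbours that had at most 1 count per library in AGS and at least 72 in HGC-27. Each line gives the 250 bases before the annotated start, 5′ to 3′ on the gene's strand, from RefSeq on GRCh38.p14, with every CG dinucleotide in capitals, since CG pairs are the bases at which promoter methylation occurs. The positions are chr19:52139939-52140188 (minus strand) for ZNF616, chr19:52171622-52171871 (minus) for ZNF836, chr19:52269337-52269586 (plus) for ZNF766 and chr19:52397599-52397848 (plus) for ZNF528. They are chr19:56477346-56477595 (minus) for ZNF667, chr19:56567218-56567467 (plus) for ZNF470 and chr19:56595052-56595301 (plus) for ZNF71.
ZNF616: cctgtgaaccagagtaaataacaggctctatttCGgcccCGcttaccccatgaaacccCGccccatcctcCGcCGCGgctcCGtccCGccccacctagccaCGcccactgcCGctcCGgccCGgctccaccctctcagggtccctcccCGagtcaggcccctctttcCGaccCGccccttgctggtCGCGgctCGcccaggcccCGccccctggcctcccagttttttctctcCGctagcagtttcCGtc
ZNF836: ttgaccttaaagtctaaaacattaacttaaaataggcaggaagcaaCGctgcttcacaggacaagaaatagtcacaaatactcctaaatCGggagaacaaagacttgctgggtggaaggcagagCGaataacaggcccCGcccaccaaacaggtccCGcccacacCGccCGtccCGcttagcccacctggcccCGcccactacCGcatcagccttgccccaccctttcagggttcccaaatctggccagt
ZNF766: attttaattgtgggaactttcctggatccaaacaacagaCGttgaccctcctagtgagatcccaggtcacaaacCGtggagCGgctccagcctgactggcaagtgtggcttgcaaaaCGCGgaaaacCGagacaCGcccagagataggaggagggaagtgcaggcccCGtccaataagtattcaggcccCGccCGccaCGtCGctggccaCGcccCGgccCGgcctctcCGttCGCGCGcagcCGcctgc
ZNF528: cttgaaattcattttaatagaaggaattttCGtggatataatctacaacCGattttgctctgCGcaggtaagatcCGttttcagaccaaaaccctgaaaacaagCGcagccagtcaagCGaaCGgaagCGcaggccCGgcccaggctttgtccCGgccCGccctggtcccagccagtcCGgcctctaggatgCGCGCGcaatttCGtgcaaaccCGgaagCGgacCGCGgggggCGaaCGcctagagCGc
ZNF667: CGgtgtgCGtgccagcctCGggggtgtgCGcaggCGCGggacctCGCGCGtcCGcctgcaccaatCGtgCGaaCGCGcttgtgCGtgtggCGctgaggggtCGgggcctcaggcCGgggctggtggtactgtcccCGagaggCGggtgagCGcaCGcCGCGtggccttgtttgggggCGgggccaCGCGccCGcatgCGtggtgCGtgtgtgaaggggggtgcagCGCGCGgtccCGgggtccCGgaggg
ZNF470: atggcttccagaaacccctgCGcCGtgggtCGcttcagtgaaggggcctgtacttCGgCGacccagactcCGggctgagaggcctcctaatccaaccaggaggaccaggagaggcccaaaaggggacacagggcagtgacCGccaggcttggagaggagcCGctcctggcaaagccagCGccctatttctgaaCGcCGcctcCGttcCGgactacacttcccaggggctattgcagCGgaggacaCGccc
ZNF71: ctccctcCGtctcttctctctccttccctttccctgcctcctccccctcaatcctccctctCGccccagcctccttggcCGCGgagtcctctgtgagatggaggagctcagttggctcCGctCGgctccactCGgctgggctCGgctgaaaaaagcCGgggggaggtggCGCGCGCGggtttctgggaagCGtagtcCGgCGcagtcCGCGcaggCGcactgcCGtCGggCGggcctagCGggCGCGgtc
These windows held 21 CG pairs in ZNF616, 10 in ZNF836, 20 in ZNF766, 23 in ZNF528, 35 in ZNF667, 15 in ZNF470 and 25 in ZNF71. CG reads the same on both strands, and 93.1% of the 22144 RefSeq promoters with a single start held at least 1 in the same 250 bases. The median was 9 CG pairs over all of these promoters, which were not limited to protein-coding genes, and 15 over members. RefSeq had an entry for 215 of the 247 members, and 180 of them had a single start and were used. Over the 300 bases from 250 before to 50 after the start, the median CG count was 21 in the 19 members low in AGS alone, 14 in the 5 members low in HGC-27 alone, 20 in the 124 members expressed in all 4 libraries and 16 in the 23 members low in all 4. Here low means at most 10 counts per library and expressed means at least 20. Over the same 300 bases the median was 20 in all 180 members used and 12 in all promoters. It was 23 in other protein-coding genes and 21 in other protein-coding genes of chromosome 19, so members did not stand above these genes. The ranges overlapped widely, from 8 to 42 in members low in AGS alone, 8 to 29 in those low in HGC-27 alone and 2 to 40 in expressed members. No methylation was measured in these cells, and the CG counts describe the sequence alone.

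Members were expressed at low to moderate levels. The median member had 6.41 and 6.01 TPM (counts scaled for gene length and library size) in AGS estradiol and control, against 4.05 and 3.65 TPM in HGC-27 estradiol and control. Summed over the 247 members the level was 2700 and 2690 TPM in AGS and 1660 and 1650 TPM in HGC-27, or 0.418% and 0.417% of counts against 0.268% and 0.266%. The higher sum in AGS came with fewer detected members: 45 members in each AGS library had 0 counts, against 30 and 31 in HGC-27. A level of at least 10 TPM on average was reached by 94 members in AGS and 42 in HGC-27. AGS thus held more well expressed members and more undetected ones. In bulk RNA, fewer expressing cells and less RNA per cell cannot be told apart.

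At the top of the range stood ZNF146 (OZF), a protein made almost wholly of zinc fingers that is overexpressed in some carcinomas. It had 9060 and 8460 counts in AGS, set against 6548 and 7858 in HGC-27, or 264 and 217 TPM on average. On CPM the log2 difference, AGS minus HGC-27, was 0.29 ± 0.05 (SE, adjusted p = 4.99e-08). The next 5 by mean TPM over all libraries were ZNF317, ZNF121, ZNF761, ZNF302 and ZNF260. Of these, ZNF317 (36.8 TPM in AGS, 55.1 TPM in HGC-27, log2 difference -0.58 ± 0.07) and ZNF121 (36.6 and 53.0 TPM, -0.53 ± 0.06) were lower in AGS. ZNF761 was higher, at 75.2 against 10.96 TPM (2.79 ± 0.08). ZNF302 averaged 43.2 TPM in AGS and 39.4 TPM in HGC-27 (0.14 ± 0.07, adjusted p = 0.0506), and ZNF260 averaged 40.7 and 39.8 TPM (0.04 ± 0.07, adjusted p = 0.587), neither of which passed the threshold of 0.05. Of these 6 abundant members, ZNF761 alone differed by more than 2-fold.

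The first comparison the design allows is AGS against HGC-27, with 2 libraries per line that differ in treatment. Zinc finger genes of chromosome 19 were mostly higher in AGS. Of 211 members that passed the filter on low counts, 124 (58.8%) were called higher in AGS and 50 (23.7%) lower (edgeR quasi-likelihood test, adjusted over all 18278 tested genes), while over all tested genes 35.7% were higher and 41.5% lower (77.2% in either direction). The median log2 difference was 0.79 over members, with quartiles of -0.29 and 1.68, and -0.10 over all tested genes. At a difference of at least 2-fold, 94 members (44.5%) were higher and 37 (17.5%) lower, against 18.3% and 26.3% of all tested genes. The filter left out 36 members, and 36 of those tested had fewer than 10 counts in both libraries of 1 line (28 in AGS, 8 in HGC-27) and so passed through the other line alone. Those members had to differ, and for this reason the 163 members with at least 20 counts in all 4 libraries are given too. Of these, 109 were higher in AGS, 20 were lower and 34 were not called, with a median of 0.99. That is 66.9% higher and 12.3% lower, against 41.5% and 36.4% of the 12052 tested genes with at least 20 counts in all 4 libraries, whose median was 0.04. At least 2-fold, 80 of the 163 were higher and 7 lower, against 15.2% and 13.4% of those genes.

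Zinc finger genes of other chromosomes and the rest of chromosome 19, each pooled as a whole, had smaller median differences. Of 235 tested ZNF genes of the same name pattern on other chromosomes, 84 (35.7%) were higher in AGS and 100 (42.6%) lower, with a median of -0.06. Of 830 other tested protein-coding genes of chromosome 19, 372 (44.8%) were higher and 326 (39.3%) lower, with a median of 0.05. That median pools stretches of the chromosome, defined below, that went opposite ways. Their medians in order were -0.56, 0.595 and 1.247, against -0.074, 0.514 and 1.311 in members, so the pooled contrast also depends on where members lie. These are values set side by side, and their differences were not tested.

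Position along the chromosome separated the members. In order of gene start, with a new cluster wherever the next start lay more than 500 kb away, members formed 20 clusters, of which 10 held 5 or more members and 233 members in all. Positions are those of the deposited table, and 243 of the 247 members have the same start and end in GENCODE 29 on GRCh38. The widest gap between neighbouring starts, 6195 kb from ZNF254 to ZNF536, spans the centromere. Medians by stretch were chosen after the values had been seen. Before that gap, on the short arm side, 18 of 62 tested members were higher in AGS and 22 lower, with a median log2 difference of -0.07. From the gap to the cluster that starts with ZNF546, 19 of 32 were higher and 4 lower, with a median of 0.51. From ZNF546 (starting at 39984134) to the end of the long arm, 87 of 117 were higher and 24 lower, with a median of 1.31. Members expressed in all 4 libraries gave medians of -0.04 (47 members), 0.51 (26) and 1.46 (90), so the order does not rest on genes silent in 1 line. The medians were close when taken from estradiol libraries alone (-0.03, 0.43 and 1.44) and from control libraries alone (-0.05, 0.56 and 1.47).

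**Figure D1:**
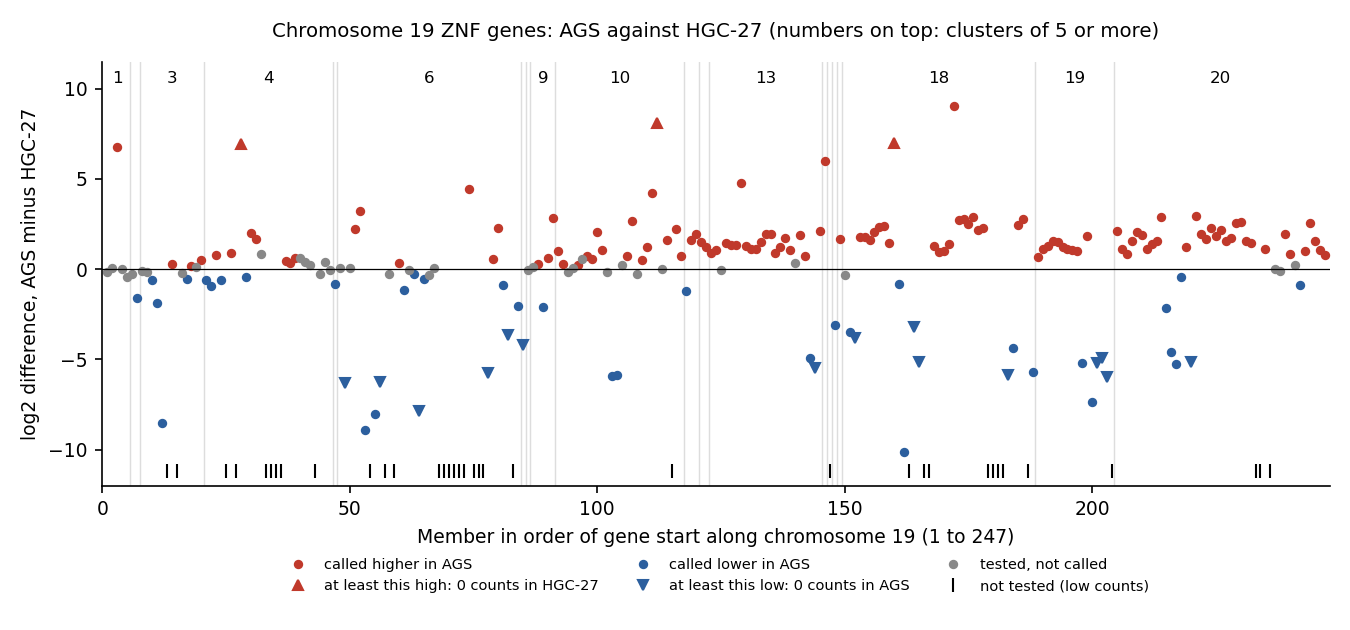
Each point is 1 of the 247 members, placed by its order of gene start (x axis, rank) against its log2 difference, AGS minus HGC-27 (y axis); red is called higher in AGS, blue called lower, grey not called, triangles mark bounds (at least this large) where 1 line had 0 counts in both libraries and ticks mark members not tested. Up to cluster 6 members scatter to both sides of 0, with a median of -0.07 over the 62 tested, and from rank 118 on, where ZNF546 starts the last stretch, 87 were called higher and 24 lower.

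Other protein-coding genes of the same stretches followed a similar order. Among the 318 of them expressed in all 4 libraries before the gap, the median was -0.46, against -0.04 in members. From the gap to ZNF546 it was 0.61 in 78 genes, against 0.51 in members, and from ZNF546 on it was 1.19 in 214 genes, against 1.46 in members. Over all tested genes of the last stretch, 231 of 315 neighbours were higher in AGS and 47 lower. On the long arm, members and their neighbours were therefore shifted in the same direction and by similar amounts. On the short arm side, 257 of 408 tested neighbours were lower in AGS, while 22 of 62 members were. DNA copy number was not measured here, and the part of position in the differences was not tested further.

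Cluster by cluster, expressed members ran from no shift to a large one. In the cluster from ZNF414 to ZNF846 (chr19:8509678-9793180, 13 members) 3 members were higher in AGS and 4 lower, and in that from ZNF653 to ZNF791 (chr19:11483427-12640098, 26 members) 8 were higher and 4 lower. The pericentromeric cluster from ZNF101 to ZNF254 (chr19:19668796-24129961, 37 members) had 6 higher and 12 lower. On the long arm, 16 of 26 members from ZNF565 to ZNF573 (chr19:36182060-37817300) were higher and 2 lower. From ZNF575 to ZNF180 (chr19:43525497-44500524, 23 members), 19 were higher and 2 lower, and 14 neighbours in a row from ZNF283 to ZNF227 were all called higher. From ZNF264 to ZNF446 (chr19:57191500-58481230, 43 members), 31 were higher and 6 lower, with 12 in a row from ZNF134 to ZNF417 called higher. Other protein-coding genes tested in the same intervals were higher in AGS in 3 of 4 cases from ZNF565 to ZNF573, in 8 of 8 from ZNF575 to ZNF180 and in 8 of 9 from ZNF264 to ZNF446. From ZNF414 to ZNF846, 2 of 2 were lower, and from ZNF653 to ZNF791, 4 of 5 were lower, with a median of -1.08 where the ZNF members there had one above 0. The medians of expressed ZNF members in these 6 clusters were -0.14, 0.35, -0.001, 0.63, 1.20 and 1.54.

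**Figure D2:**
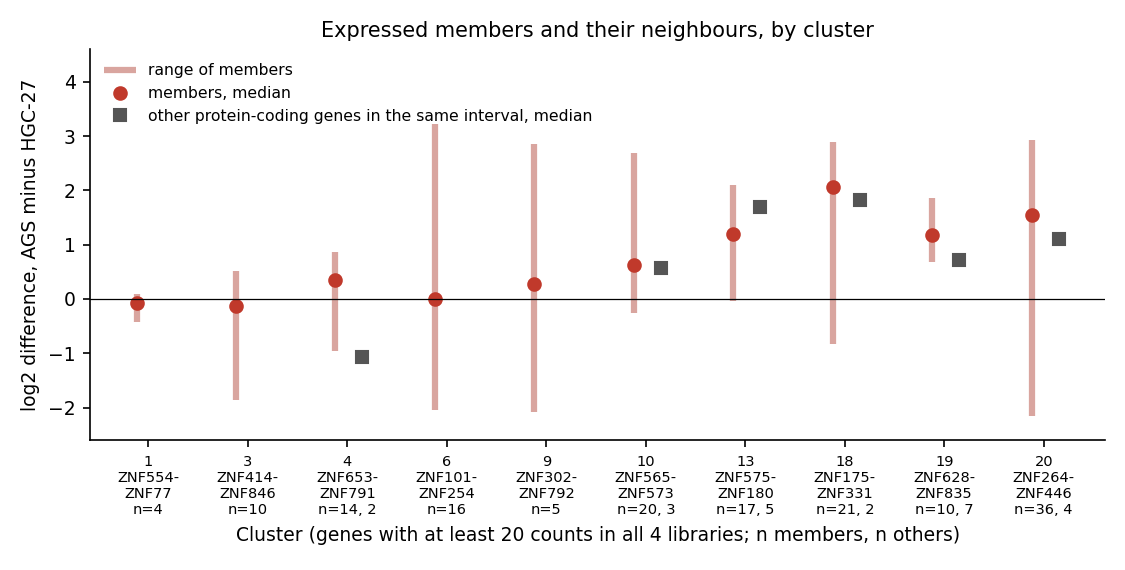
For each of the 10 clusters with 5 or more members, the red point is the median log2 difference (AGS minus HGC-27) of members with at least 20 counts in all 4 libraries, the bar is their range and the black square is the median of other protein-coding genes of the same interval where at least 2 were expressed. The medians lie between -0.14 and 0.35 in the first 5 clusters shown and between 0.63 and 2.06 in the last 5.

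Among clusters of 5 or more members, the largest median shift was that of the 39 members from ZNF175 to ZNF331 (chr19:51571298-53580269). Of these 21 were higher in AGS, 9 lower, 1 was not called and 8 were not tested. The 21 members expressed in all 4 libraries had a median log2 difference of 2.06, with a range from -0.83 to 2.89. The 5 other protein-coding genes tested in this interval were all higher too, with a median of 3.88 (1.82 for the 2 expressed in all 4 libraries). ZNF841 illustrates the common pattern, with 1636 and 1541 counts in AGS libraries against 274 and 346 in HGC-27 (2.37 ± 0.09). ZNF350 (ZBRK1), which binds the tumour suppressor BRCA1, had 414 and 391 counts in AGS and 105 and 127 counts in HGC-27 (1.80 ± 0.16). ZNF616, with 834 and 768 counts in AGS, set against 279 and 305 in HGC-27, was higher by 1.46 ± 0.11. In all 3 genes the AGS libraries lay above the HGC-27 libraries with no overlap. ZNF28, ZNF468, ZNF888 and ZNF160 were 2.30 to 2.89 higher in AGS, although ZNF468 and its neighbour ZNF320 share over 99% of their 31-base stretches with each other, so their separate counts are uncertain.

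Between these genes lay others that went the opposite way or were found in 1 line alone. ZNF600, between ZNF611 and ZNF28, had 1184 and 1094 counts in AGS libraries against 2 and 2 in HGC-27 (9.07 ± 0.24, adjusted p = 4.09e-133). ZNF480 had 0 and 1 counts in AGS and 654 and 741 counts in HGC-27, and its fitted difference of -10.12 became -12.45 without AGS control and -9.22 without AGS estradiol. On summed counts it was 1390-fold lower in AGS, with a 95% counting interval from 249 to 54800. ZNF766, its neighbour, was expressed in both lines and lower in AGS, at 212 and 220 counts against 361 and 414 counts in HGC-27 (-0.83 ± 0.14). A row of 6 members from ZNF480 to ZNF578 (chr19:52297177-52512154) had at most 10 counts in each AGS library, and it lies between a row of 8 called higher in AGS (ZNF613 to ZNF836) and a row of 11 called higher (ZNF808 to ZNF160), with ZNF766 just before it. In HGC-27 that same row was mixed, with ZNF480, ZNF880 and ZNF528 detected and ZNF610, ZNF534 and ZNF578 at 1 count or less. A second row, from ZNF415 to ZNF677 (chr19:53107879-53254898), had at most 10 counts in all 4 libraries.

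**Figure D3:**
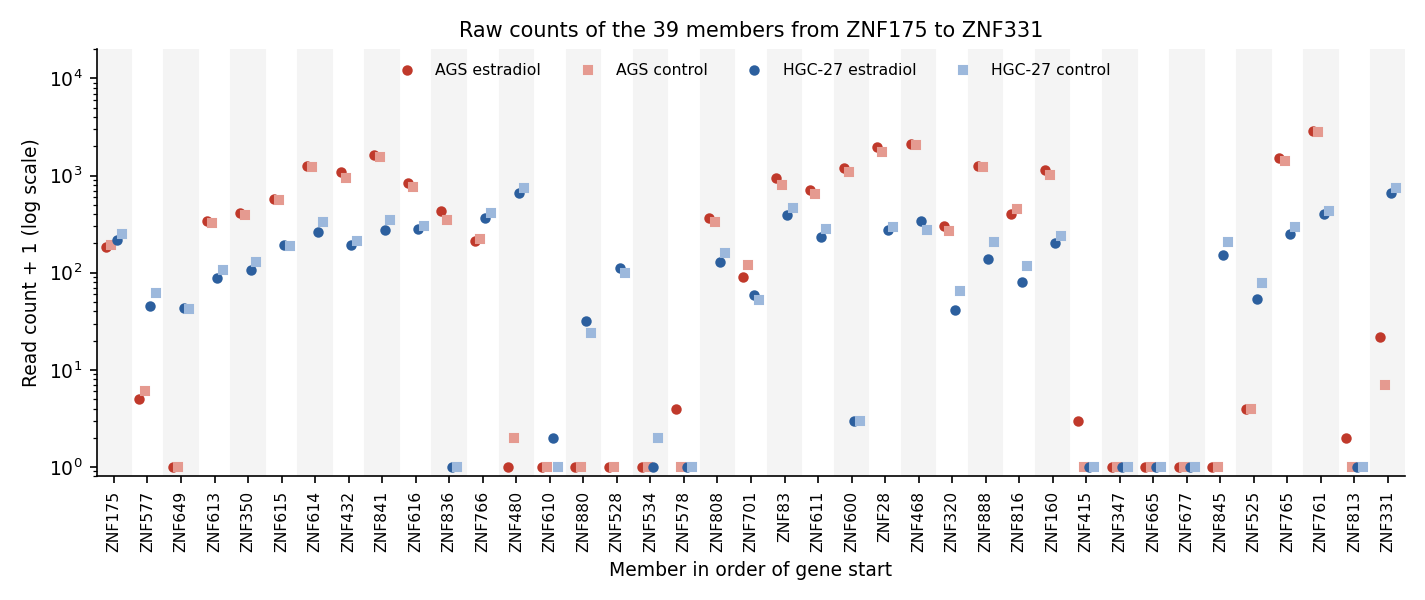
Raw read counts plus 1 (y axis, log scale) of the 39 members from ZNF175 to ZNF331 in order of gene start (x axis), with AGS in red and HGC-27 in blue, circles for estradiol and squares for control. AGS lies above HGC-27 in most columns, while ZNF480, ZNF528 and ZNF845 drop to at most 1 count in AGS, and ZNF600 and ZNF836 drop to at most 2 in HGC-27.

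Several members were expressed in 1 line and undetected in the other. In AGS, 15 members (6.07%) had 0 counts in both libraries and at least 20 in each HGC-27 library, while 3.41% of all protein-coding genes did. In HGC-27, 3 members (1.21%) had 0 counts in both libraries and at least 20 in each AGS library, while 1.04% of protein-coding genes did. A count of 0 in a library allows up to 3 counts, which is 0.104 to 0.12 CPM here, so the folds that follow are bounds against 3 counts per library and cover counting error only. At a limit of 10 counts, chosen after the values had been seen, the numbers were 28 low in AGS and 7 low in HGC-27. The share of all protein-coding genes was not taken at this limit, so these numbers describe members alone.

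The 3 members detected in AGS alone were ZNF793, ZNF836 and ZNF69. ZNF793 (chr19:37506939-37548762, cluster ZNF565 to ZNF573) had 825 and 849 counts in AGS, set against 0 and 0 in HGC-27 and was at least 279-fold higher in AGS. ZNF836 had 427 and 350 counts in AGS against 0 and 0, at least 129-fold higher, and ZNF69 had 402 and 333 against 0 and 0, at least 122-fold higher. Of the 4 others with at most 10 counts per library in HGC-27, ZNF600 is given above. ZNF296, on a stretch with no other member nearby, had 329 and 313 counts in AGS libraries against 4 and 6 in HGC-27 (5.98 ± 0.32), and ZNF556 had 106 and 136 against 2 and 0. The fitted difference of ZNF556, 6.76, became 9.96 without HGC-27 estradiol and 5.73 without HGC-27 control, and on summed counts it was 122-fold higher in AGS, with a 95% counting interval from 33.3 to 1010. ZNF221 had 100 and 94 counts in AGS and 1 and 6 counts in HGC-27 (4.78 ± 0.51, or 4.09 without HGC-27 estradiol and 6.33 without HGC-27 control). ZNF492 completes the 8 largest differences in this direction, at 149 and 173 counts in AGS, set against 4 and 11 in HGC-27 (4.44 ± 0.37, or 3.96 without HGC-27 estradiol and 5.18 without HGC-27 control), and shares 44.2% of its 31-base stretches with other genes.

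The 15 members detected in HGC-27 alone were spread over 6 clusters, lone genes included, and their bounds ran from at least 9.09-fold (ZNF880) to at least 236-fold lower in AGS (ZNF738). ZNF738 had 0 and 0 counts in AGS libraries against 684 and 736 in HGC-27. ZNF14 followed with 0 and 0 against 233 and 244 (at least 79.3-fold lower), ZNF737 with 0 and 0 against 228 and 240 (77.8-fold) and ZNF730 with 0 and 0 against 160 and 164 (53.9-fold). All 4, and ZNF681 with 31 and 45 counts in HGC-27, lie in the pericentromeric cluster from ZNF101 to ZNF254. On the long arm, ZNF71 had 0 and 0 counts in AGS and 196 and 186 counts in HGC-27 (at least 63.7-fold lower), ZNF845 0 and 0 against 150 and 207 (58.7-fold), and ZNF229 0 and 0 against 127 and 145 (45.1-fold). ZNF530 (115 and 95 counts in HGC-27), ZNF528 (112 and 98) and ZNF470 (84 and 100) were at least 35.2-fold, 35.1-fold and 30.4-fold lower in AGS. ZNF536, a repressor best known from neurons and the only member between ZNF254 and ZNF507, had 0 and 0 counts in AGS, set against 55 and 54 in HGC-27 (18.2-fold).

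**Figure D4:**
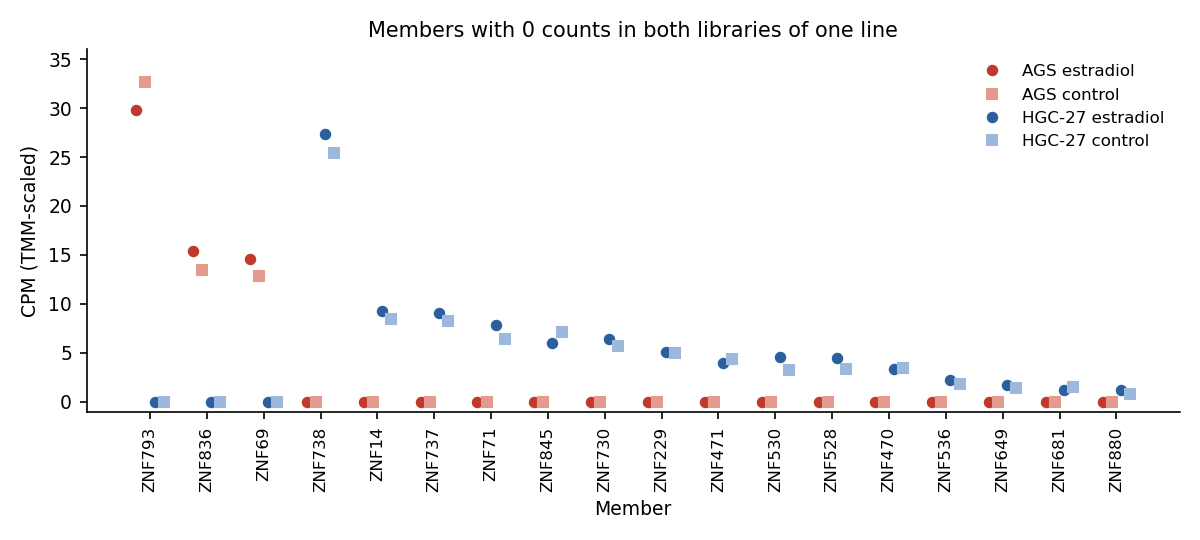
CPM (TMM-scaled, y axis) of the 18 members with 0 counts in both libraries of 1 line and at least 20 in each library of the other, with AGS in red and HGC-27 in blue, circles for estradiol and squares for control. The first 3 members have their signal in AGS and the other 15 in HGC-27, and the 2 libraries of the expressing line lie close together in each.

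The clearest local row was that of ZNF667, ZNF471, ZNF470 and ZNF71 (chr19:56439325-56626481), all neighbours and all low in AGS alone. ZNF667 had 0 and 1 counts in AGS libraries against 72 and 136 in HGC-27, and ZNF471 had 0 and 0 against 99 and 127. Just before them on the chromosome, 9 members in a row from ZNF628 to ZNF444 were called higher in AGS. ZNF444, the last of that row, had 602 and 667 counts in AGS and 318 and 324 counts in HGC-27 (0.99 ± 0.12). Between the rows stand ZNF582, with 0 and 2 counts in AGS against 38 and 44 counts in HGC-27, and ZNF583, which was higher in AGS, with 263 and 189 counts against 51 and 73 in HGC-27 (1.86 ± 0.22). From ZNF546 to the end of the chromosome, 24 members were called lower in AGS, and 17 of these had at most 10 counts in both AGS libraries. The other 7 were ZNF546, ZNF114, ZNF766, ZNF331, ZNF419, ZNF550 and ZNF837. Members called lower in AGS from ZNF546 on were thus mostly undetected or nearly undetected there. Members this low in AGS passed the filter on low counts largely through HGC-27 and had to differ. The share of such genes among other genes called lower was not taken, so the count describes these members alone. None of the 28 members low in AGS alone shared 50% or more of its 31-base stretches, or of its exon bases, with another gene.

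Another set was silent in both lines. Of the 247 members, 18 (7.29%) had 0 counts in all 4 libraries, while 14.6% of all protein-coding genes did. In all, 34 members had at most 10 counts in each library, a limit at which the share of protein-coding genes was not taken. The pericentromeric cluster held 13 of these 34, including a row of 6 from ZNF43 to ZNF98 (chr19:21804949-22532485) and a row of 3 from ZNF99 to ZNF728 (chr19:22752183-23003176). ZNF85, ZNF90, ZNF257, ZNF676 and ZNF729 were among those at 0 throughout. In the same cluster 16 members were expressed in all 4 libraries, so silence was not a property of the whole interval. Of the 34, 4 shared 50% or more of their sequence or exons with another gene, among them ZNF177, which shares 98.7% of its 31-base stretches with the readthrough gene ZNF559-ZNF177.

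Members with known roles were found in each of these patterns. ZNF91, which represses SVA elements, had 824 and 720 counts in AGS, set against 159 and 157 in HGC-27 (2.29 ± 0.13, adjusted p = 7.38e-53). ZNF93, which represses LINE-1 elements, had 686 and 640 against 71 and 72 (3.22 ± 0.15, adjusted p = 2.29e-65). Both were higher in AGS, in a cluster whose expressed members had a median of -0.001, and their AGS libraries lay far above those of HGC-27. ZNF649, also reported to bind LINE-1, went the other way with 0 and 0 counts in AGS libraries against 42 and 41 in HGC-27 (at least 13.8-fold lower). ZNF461 had 241 and 296 counts in AGS and 159 and 164 counts in HGC-27 (0.74 ± 0.17). ZNF274, which recruits SETDB1 to the ends of zinc finger genes, had 714 and 632 counts in AGS, set against 666 and 792 in HGC-27 (-0.11 ± 0.10, adjusted p = 0.297), so its libraries overlapped.

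Of the 3 listed members described as promoter-methylated in gastric cancer, 2 were called lower in AGS, as were 41.5% of all tested genes, and the list was chosen with earlier results of these data known. ZNF331 had 21 and 6 counts in AGS libraries against 663 and 744 in HGC-27 (-5.69 ± 0.21, adjusted p = 7.53e-93), or -6.79 without the AGS estradiol library and -5.08 without AGS control. ZNF471 had 0 and 0 counts in AGS and 99 and 127 counts in HGC-27 (at least 37.3-fold lower). ZNF382 was near the limit in both lines, with 29 and 23 counts in AGS, set against 23 and 13 in HGC-27 (0.54 ± 0.53, adjusted p = 0.345). All 3 had under 30 counts per library in AGS, and ZNF382 did in HGC-27 too. The share of members under this limit was not taken, so it does not set the 3 apart. ZNF568, whose mouse counterpart represses a placental Igf2 transcript, had 6 and 2 counts in AGS libraries against 226 and 249 in HGC-27 (-5.85 ± 0.37), or -6.75 without AGS estradiol and -5.30 without AGS control. ZNF224 had 727 and 617 counts in AGS and 185 and 167 counts in HGC-27 (1.93 ± 0.13), though 40.5% of its exon bases overlap another gene. ZNF473, which acts in the processing of histone messenger RNA precursors, had 1607 and 1415 counts against 433 and 508 (1.69 ± 0.09).

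Transcripts of the listed proteins through which KRAB zinc finger factors act were detected in both lines. Of 33 silencing partners tested, 17 were higher in AGS and 14 lower, with a median log2 difference of 0.15. Over all tested genes, 35.7% were higher and 41.5% lower, or 77.2% in either direction. TRIM28, itself a gene of chromosome 19, had 21743 and 20243 counts in AGS, set against 7476 and 8968 in HGC-27 (1.36 ± 0.05). The chromatin remodeller SMARCAD1 (1.68 ± 0.07), the histone deacetylase HDAC2 (1.21 ± 0.05) and SETDB1 (0.39 ± 0.07) were also higher in AGS. CBX5, which encodes HP1 alpha, had 5808 and 5494 counts in AGS libraries against 15239 and 16674 in HGC-27 (-1.49 ± 0.05). Also lower in AGS were ATRX (-1.209 ± 0.054), CBX1 (-0.854 ± 0.055) and CBX3 (-0.766 ± 0.051). Of 15 tested genes of DNA methylation and its readers, 5 were higher and 8 lower in AGS, with a median of -0.16. The same shares of all tested genes apply here. The maintenance methyltransferase gene DNMT1 had 6612 and 5795 counts in AGS and 12704 and 15548 counts in HGC-27 (-1.18 ± 0.05), and TET1, whose product oxidises methylcytosine, had 242 and 232 against 983 and 1000 (-2.06 ± 0.11). DNMT3B, a de novo methyltransferase gene, was higher in AGS (1.03 ± 0.07), and MBD2, a reader of methylated DNA, was lower (-1.45 ± 0.07). Neither list moved in 1 direction as a whole, and their part in the members' levels was not tested.

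The other comparison is estradiol against control over both lines, paired by line (n = 2 libraries per group). No member was called in either direction, against 0.115% of all tested genes higher and 0.0383% lower with estradiol. The median log2 change of the 211 tested members was 0.01. At an unadjusted p under 0.05, 3 members (1.42%) passed in edgeR, against 3.24% of all tested genes, 0 in DESeq2 and 2 in limma-voom, and neither of the other tools called a member after adjustment. The 3 were ZNF546, ZNF548 and ZNF784, each with an adjusted p of 0.99994. ZNF548 had 446 counts with estradiol and 524 in control in AGS, and 190 and 261 in HGC-27 (-0.29 ± 0.13). ZNF784 had 273 and 350 in AGS and 96 and 127 in HGC-27 (-0.35 ± 0.18). ZNF546 had 90 and 40 counts in AGS but 138 and 148 in HGC-27, so its change was seen in 1 line.

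Within a line there is 1 library per treatment, so ratios of estradiol over control are given with 95% counting intervals and no test. Among the 156 members with a mean of at least 100 counts in AGS, the interval lay above 0 in 12 (7.69%) and below 0 in 15 (9.62%), against 14.2% and 15.5% of all genes at that level. Among 154 in HGC-27 it lay above 0 in 12 (7.79%) and below in 7 (4.55%), against 10.8% and 14.6%. The median log2 ratio was 0.01 in AGS and -0.01 in HGC-27. Of 129 members measured at that level in both lines, 63 had the same sign in both, and none had an interval on the same side of 0 in both. Among all 9867 genes at that level in both lines, 115 had intervals above 0 in both and 197 below 0 in both. The share of all genes with the same sign was not taken. Intervals on opposite sides were found in 4 (3.10%), against 4.86% of all genes at that level. The intervals cover counting error alone, and the members' shares were below those of all genes. The width of an interval depends on the count, and the sets were not matched for counts above the limit of 100. The lower shares therefore do not show a smaller response of members.

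**Figure D5:**
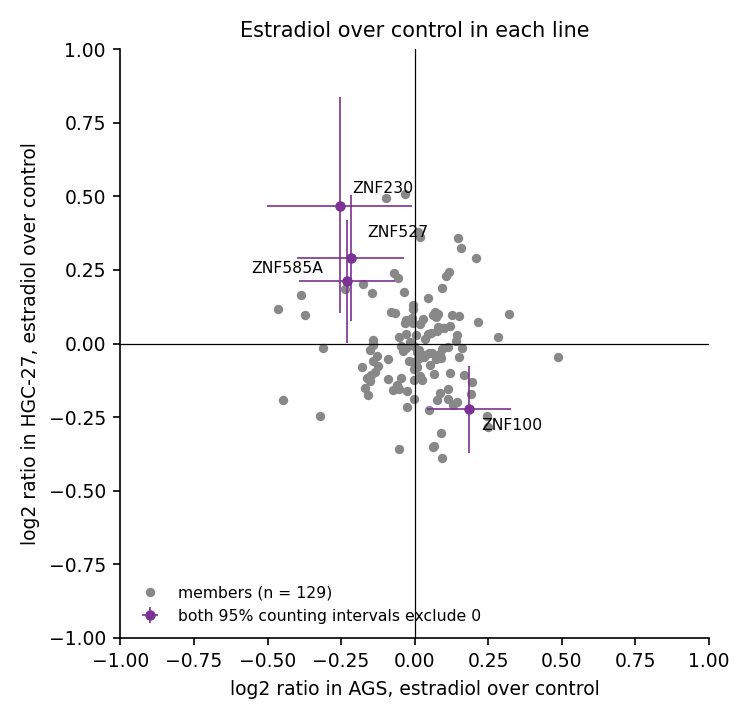
Each point is 1 of 129 members with a mean of at least 100 counts in both lines, with its log2 ratio of estradiol over control in AGS (x axis) and in HGC-27 (y axis); bars are 95% counting intervals, drawn for the 4 members whose interval excludes 0 in both lines. Those 4 lie in the quadrants of opposite sign, and the cloud of points is centred near 0 on both axes.

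Among members with a mean of at least 100 counts in the line, the highest in AGS were ZNF550, with 188 counts with estradiol and 126 in control (log2 ratio 0.49), ZNF583 (0.39) and ZNF805 (0.38), and lowest were ZNF701, with 89 and 119 counts (-0.51), ZNF358 (-0.46) and ZNF556 (-0.45). In HGC-27, ZNF468 (0.51), ZNF823 (0.49) and ZNF530 (0.49) were highest at that level, of which ZNF468 has uncertain counts because of its copy. ZNF667, with 72 and 136 counts (-0.70), ZNF799 (-0.39) and ZNF888 (-0.36) were lowest. Among members at that level in both lines with the same sign in both, ZNF329 (0.21 in AGS, 0.29 in HGC-27), ZNF586 (0.16 and 0.33), ZNF224 (0.15 and 0.36) and ZNF587B (0.12 and 0.24) had the highest ratios. ZNF548 (-0.32 and -0.25), ZNF784 (-0.45 and -0.19), ZNF324 (-0.16 and -0.18) and ZNF787 (-0.17 and -0.15) had the lowest. The silencing partners and DNA methylation genes gave no call with estradiol either.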

How the data were processed

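Total RNA of 4 libraries was extracted with TRIzol and prepared with the usual NEB procedure, per the labels' protocols. HISAT2 did the alignment and featureCounts the counting, per the submitters' processing notes. Their versions, the strand setting and the handling of multiply matching reads are not given in the sources used here. Values in the deposited table are raw counts, whole numbers with no normalization. The same notes name build hg18, but all 247 members are in GENCODE 29 on GRCh38, 243 with equal start and end.

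Counts were tested in R 4.3.3 with edgeR 4.0.16 (TMM scaling, filterByExpr, quasi-likelihood test, cell line plus treatment, Benjamini-Hochberg adjustment over 18278 genes, threshold 0.05). The fit leaves 1 residual degree of freedom and rests on a spread pooled over genes (prior degrees of freedom 396.9, biological coefficient of variation 4.59%). Libraries of a line share the number in their names, so the line was the block in the estradiol comparison. Standard errors (SE) come from the fitted change and its F statistic. TPM were computed from counts and the table's gene lengths, and CPM with TMM-scaled totals, where 3 counts are 0.104 to 0.12 CPM. Ratios within a line used a prior of 0.5 counts and exact conditional binomial intervals of 95%. Since no molecular identifiers mark single molecules, intervals and bounds cover counting error only. Shared sequence is the percent of 31-base stretches of a gene's longest GENCODE 29 transcript found in other genes. DESeq2 1.42.0, limma-voom (limma 3.58.1), RLE scaling, no filter on low counts, no treatment term and leaving out each library were tried as alternatives. The fits were tested on simulated data in which every gene had the same spread, so that check does not cover spread that differs between genes.

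Members and gene lists (silencing partners, DNA methylation genes, members of known role, markers) were chosen with earlier results of these data known. Genes were named by rule: members at 0 in 1 line, up to 12 per direction by TPM; the 8 largest differences per direction at 1 CPM or more; the 6 highest by TPM; for estradiol, the 4 per direction that agree in sign between lines and the 3 extremes per line, at a mean of 100 counts; members of the lists; and up to 4 genes per list by difference. Other genes named for their position in a row, ZNF473, ZNF350, SETDB1, ATRX, CBX1 and CBX3 were chosen after their values were seen.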

Additional observations from a re-analysis of the deposited data

Results flagged for a closer look

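In 4 of 129 members (3.10%) the estradiol over control ratios had opposite signs in the lines, with 95% counting intervals that exclude 0 in both. The share was 4.86% among all 9867 genes with a mean of at least 100 counts in both lines. Each ratio sets 1 library against 1 with counting error alone, so no effect of estradiol is shown and the difference between the lines was not tested. ZNF100 had 894 counts with estradiol and 739 in control in AGS (log2 ratio 0.19), and 660 and 892 in HGC-27 (-0.22), a difference of 0.409 between the ratios. ZNF585A had 589 and 650 in AGS (-0.23), and 379 and 379 in HGC-27, where the log2 ratio after scaling was 0.21 with an interval from 0.0016 to 0.42, a difference of -0.442. ZNF527 had 483 and 528 in AGS (-0.22), and 372 and 352 in HGC-27 (0.29), a difference of -0.508. ZNF230 had 262 and 294 in AGS (-0.25), and 140 and 117 in HGC-27 (0.47), a difference of -0.724.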

How the results depend on the processing

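Of the results recomputed, none reversed except the small medians of the clusters ZNF554 to ZNF77 and ZNF101 to ZNF254, given below. The rows of neighbours and the promoter CG counts were not recomputed. The count of members called higher in AGS was 124 and lay between 111 (DESeq2) and 125 (RLE scaling) over other tools, scalings and filters, and the count called lower was 50 and lay between 44 and 53; leaving out a library gave 117 to 124 higher and 46 to 52 lower, and both counts stayed within 1.5 times at a difference of at least 2-fold (94 and 37). Of 416 settings for 76 values of named members and list genes, 414 kept direction and side of the threshold; ZNF302 passed under RLE scaling (adjusted p = 0.0361) and ZNF461 did not under DESeq2 (adjusted p = 0.0598), and the cause was not tested. The size was less stable for members with few counts in 1 line (ZNF480, ZNF556, ZNF667, ZNF221, ZNF492, ZNF331 and ZNF568), where leaving out a library moved the fold by over 1.5 times. Counts of silencing partners and DNA methylation genes called stayed within 1.5 times. Medians of expressed members, recomputed for 10 clusters, kept their sign except in the clusters ZNF554 to ZNF77 (-0.219 to 0.074) and ZNF101 to ZNF254 (-0.036 to 0.022). Members at 0 in AGS alone were 15, 24 with at most 3 counts and 28 with at most 10, and 15 to 21 without 1 library; those at 0 in HGC-27 alone were 3, 5 and 7, and 3 to 4 without 1 library. These counts grow because the limit is looser. The median log2 difference before the widest gap was -0.074, and -0.025 in DESeq2, with -0.041 to -0.005 when a library was left out (-0.019 without AGS control, -0.005 without HGC-27 estradiol). From the gap to ZNF546 it was 0.514, with 0.353 (without HGC-27 control) to 0.570 when a library was left out. From ZNF546 on it was 1.311, with 1.255 to 1.392. Clusters numbered 20, 25 with a gap of 250 kb and 16 with 1000 kb. With estradiol, 0 members were called under every alternative, and without the replicate block, so without pairing by line, 0 were called higher and 0 lower. Leaving out a library leaves the estradiol comparison with no residual degree of freedom, and the remaining line's ratios are given as values. With 3 counts worth about 0.1 CPM, differences below that level were not detectable.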
